A study of Mus musculus with 17 samples.

Results

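The 9 genes Pax2, Pax8, Lhx1, Osr2, Pou3f3, Tmem100, Greb1, Bmper and Snap91 are transcription factors and other genes linked to committed nephron cells, and they were followed in whole embryonic mouse kidneys in which beta-catenin was stabilised in one cell lineage. They were chosen by symbol from the 24432 gene IDs of the expression table, and each symbol matched 1 ID. All 9 passed the filter on low values (at least 1 FPKM in at least 3 of the 17 libraries, which kept 14014 IDs).

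RNA of kidneys dissected at E12.5 from mice of mixed strain was sequenced in 17 libraries. In 5 of them (genotype Ctnnb1-delta3 c/+;Foxd1, here Foxd1-Cre) 1 copy of Ctnnb1 carried the allele that Cre turns into active beta-catenin, and Cre was made in the stromal lineage. In 3 (Ctnnb1-delta3 c/+;Six2, here Six2-Cre) the same allele was combined with Cre in the nephron progenitor lineage. The other 9 came from wild-type kidneys, of which replicates 1 to 6 were set against Foxd1-Cre and replicates 7 to 9 against Six2-Cre. The labels do not say whether wild types carried a Cre or an unrecombined allele, or whether kidneys were pooled, and a value for the whole of Ctnnb1 cannot show the loss of its exon.

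Nephrons arise when Wnt9b from the ureteric bud acts through beta-catenin on the progenitors that cap the bud tips. The induced cells gather as a pretubular aggregate, switch on Wnt4, Fgf8, Pax8 and Lhx1, and turn into an epithelial renal vesicle that is later patterned into podocytes and tubule segments. In the mouse Pax2 is already present in progenitors, and Pax2, Pax8 and Lhx1 are also made in the ureteric bud, so a value from a whole kidney adds these sources. In such samples fewer cells of a type and less RNA per cell cannot be told apart.

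The libraries fell into 2 sets with the same membership as the comparisons. Set 1 (Foxd1-Cre and wild types 1 to 6) had 5312 to 5807 genes listed at 0. Set 2 (Six2-Cre and wild types 7 to 9) had 7590 to 7891 such genes. Reads per library were estimated, without an error, at 28830000 to 37550000 in set 1 and 5340000 to 5880000 in set 2. In the main tests the mutants were therefore compared only through their own wild types. The kidney genes Wt1, Six2, Ret, Foxd1, Gdnf, Cited1 and Hoxb7 were above 0 in every group, and podocyte and tubule genes were scarce, with 5 of 9 and 3 of 9 passing the filter. By limma, 13.3% of 13996 genes were called (adjusted p under 0.05, Benjamini-Hochberg) in Foxd1-Cre kidneys, 13.8% of 13828 in Six2-Cre kidneys, and for 11.0% of 13810 the Foxd1-Cre effect differed from the Six2-Cre effect.

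Among the 9 genes 5 were called in Foxd1-Cre kidneys, with 2 higher and 3 lower, against 8.45% higher and 4.82% lower of all genes. In Six2-Cre kidneys 6 were called, with 3 higher and 3 lower, against 7.93% and 5.84% of all genes. The Foxd1-Cre effect was above the Six2-Cre effect for 3 of the 9 and below it for 2, against 5.76% and 5.24% of all genes. The median absolute log2 change of the 9 was 0.28 in Foxd1-Cre and 0.64 in Six2-Cre kidneys, beside 0.07 and 0.14 over all genes tested. Pax8 was the one gene called in the same direction in both mutants, and Osr2 and Pou3f3 were called in opposite directions. Changes are given as log2(FPKM + 1), mutant minus its wild types, which understates the change of low genes. The 9 genes were picked with earlier results of these data known, so the counts describe them and test nothing.

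**Figure D1:**
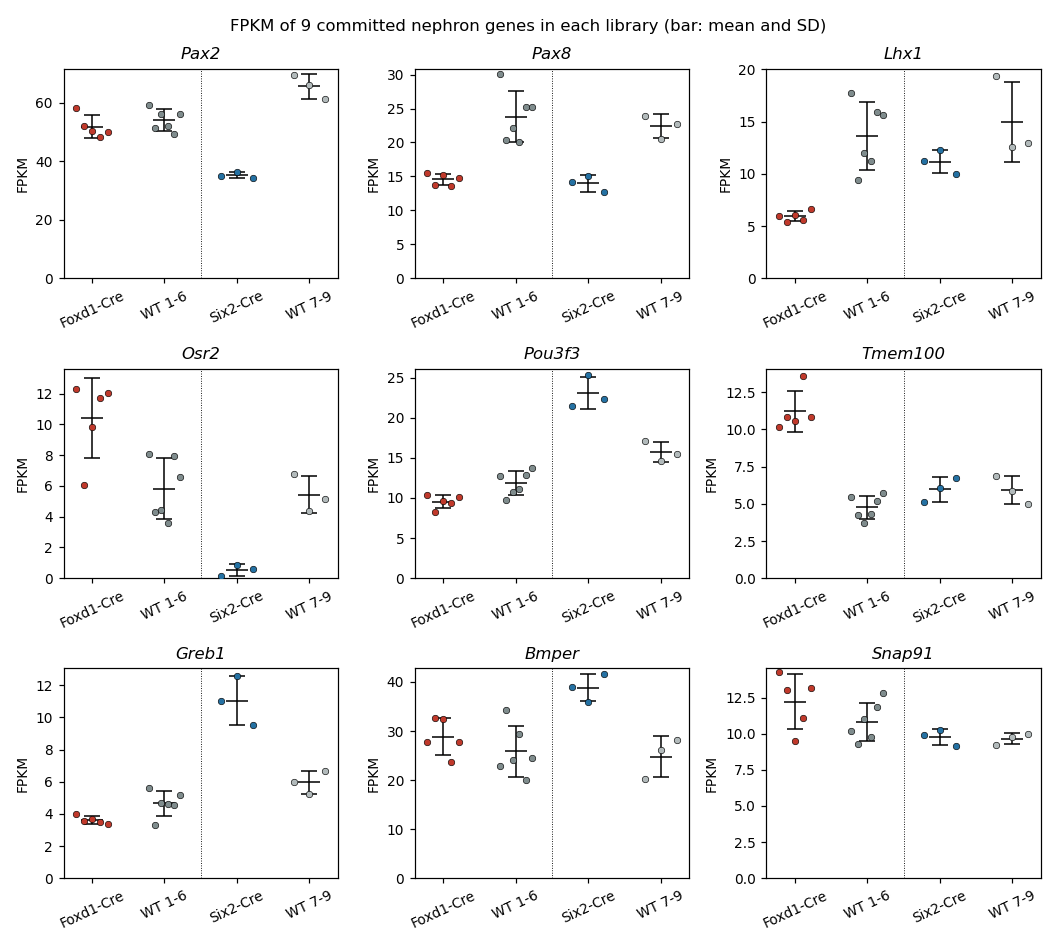
Each panel shows the FPKM of 1 gene (vertical axis) in every library, with points for libraries and bars for the mean and SD of Foxd1-Cre (5 libraries), wild types 1 to 6, Six2-Cre (3 libraries) and wild types 7 to 9. Osr2 sits between 0.137 and 0.885 FPKM in the Six2-Cre libraries, below every other library, and Tmem100 is higher in all 5 Foxd1-Cre libraries than in any wild type.

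Start-site sequences are shown for 4 genes, Pax8, Lhx1, Pou3f3 and Greb1. Pax8, Lhx1 and Pou3f3 were called lower in Foxd1-Cre kidneys. Pou3f3, Greb1 and Bmper, whose window is not shown, were called higher in Six2-Cre kidneys. Each RefSeq window (build GRCm38.p6) runs from 250 bases before to 50 bases after an annotated start, on the strand of the gene. Capitals mark CTTTGAT or CTTTGAA, the core that the TCF/LEF partners of beta-catenin bind, and CCAAT, the box bound by NF-Y, on either strand. Pax8 and Lhx1 lie on chromosomes 2 and 11 (minus strand), Pou3f3 on chromosome 1 (plus strand), and Greb1, with 2 annotated starts, on chromosome 12 (minus strand).
Pax8, chr2:24475550-24475849: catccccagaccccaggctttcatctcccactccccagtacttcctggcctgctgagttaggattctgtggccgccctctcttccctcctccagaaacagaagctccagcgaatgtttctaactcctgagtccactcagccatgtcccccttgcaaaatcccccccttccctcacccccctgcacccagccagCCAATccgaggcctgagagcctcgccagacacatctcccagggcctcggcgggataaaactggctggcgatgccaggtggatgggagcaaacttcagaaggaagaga
Lhx1, chr11:84525485-84525784: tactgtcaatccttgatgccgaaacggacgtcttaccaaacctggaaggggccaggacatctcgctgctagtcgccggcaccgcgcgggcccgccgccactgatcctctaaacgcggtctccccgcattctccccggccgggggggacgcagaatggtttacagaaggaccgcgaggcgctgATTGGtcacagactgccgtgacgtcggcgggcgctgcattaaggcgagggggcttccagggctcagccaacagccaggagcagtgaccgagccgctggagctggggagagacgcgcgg
Pou3f3, chr1:42695518-42695817: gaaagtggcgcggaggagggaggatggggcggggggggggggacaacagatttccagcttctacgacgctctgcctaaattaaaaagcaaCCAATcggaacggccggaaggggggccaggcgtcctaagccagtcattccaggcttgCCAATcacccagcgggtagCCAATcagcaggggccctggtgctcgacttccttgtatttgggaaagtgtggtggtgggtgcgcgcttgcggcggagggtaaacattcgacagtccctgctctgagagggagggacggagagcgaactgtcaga
Greb1, upstream start, chr12:16800837-16801136: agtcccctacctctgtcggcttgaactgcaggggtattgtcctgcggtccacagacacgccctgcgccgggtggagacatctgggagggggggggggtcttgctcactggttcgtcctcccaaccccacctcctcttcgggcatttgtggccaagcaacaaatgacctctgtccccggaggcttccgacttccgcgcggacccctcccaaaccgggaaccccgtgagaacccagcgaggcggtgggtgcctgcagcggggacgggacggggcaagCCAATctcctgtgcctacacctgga
Greb1, internal start, chr12:16757190-16757489: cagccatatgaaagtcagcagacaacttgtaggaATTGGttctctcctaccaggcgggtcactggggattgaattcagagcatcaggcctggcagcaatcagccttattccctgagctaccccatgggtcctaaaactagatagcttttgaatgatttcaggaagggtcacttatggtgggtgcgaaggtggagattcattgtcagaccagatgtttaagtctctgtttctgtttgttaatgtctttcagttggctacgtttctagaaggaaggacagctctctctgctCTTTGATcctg

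Windows were listed for 7 of the 9 genes, 10 windows in all. CTTTGAT was found in 1 of the 10, that of the internal Greb1 start, beginning 40 bases after it, and in 3.73% of all 32851 windows. CTTTGAA was in 0 of the 10 and in 5.14% of all. CCAAT was in 5 of the 10 and in 37.4% of all, with 3 copies before the Pou3f3 start, beginning at -160, -103 and -84 from it, 1 before that of Pax8, 1 before that of Lhx1, 1 after the upstream Greb1 start, beginning at 26, and 1 before the internal one. The GC box GGGCGG, not marked above, was in 6 of the 10 and in 35.7% of all. The CCAAT and GC boxes were added after the sequences had been read, and the windows shown above are those that hold CCAAT. A match is a run of letters in a window of 300 bases and says nothing of binding.

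Pax2 (ENSMUSG00000004231, GRCm38 chromosome 19, 44756045 to 44837871) encodes a paired-box factor that kidney formation requires. It had the highest mean of the 9 genes in both sets of wild types. In Foxd1-Cre kidneys its level was 58.3, 52.0, 50.3, 48.1 and 49.9 FPKM, against a lowest, median and highest value of 49.4, 54.0 and 59.2 FPKM in wild types 1 to 6. The groups overlapped almost fully, and the log2 change was -0.06 ± 0.06 (SE; limma, adjusted p = 0.574), with a 95% interval of -0.19 to 0.07. In Six2-Cre kidneys Pax2 was at 35.0, 36.3 and 34.4 FPKM, against 69.6, 66.2 and 61.2 FPKM in wild types 7 to 9. All 3 mutant libraries lay below all 3 wild types, the mean was 53.7% of that of the wild types, and the log2 change was -0.88 ± 0.06 (limma, adjusted p = 8.5e-04). The effects of the mutants differed by 0.82 ± 0.08 (adjusted p = 5.1e-06).

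Pax8 (ENSMUSG00000026976, chromosome 2, 24420560 to 24475599) acts redundantly with Pax2 in early kidney development and comes on as progenitors commit. It was at 15.6, 13.7, 15.1, 13.7 and 14.7 FPKM in Foxd1-Cre kidneys, against a lowest of 20.0, a median of 23.7 and a highest of 30.0 FPKM in their wild types. The Foxd1-Cre libraries were close together and all below the lowest wild type. In Six2-Cre kidneys the values were 14.2, 15.03 and 12.7 FPKM, against 23.9, 20.5 and 22.8 FPKM. Pax8 therefore stood at 61.1% of the wild-type mean in Foxd1-Cre and 62.4% in Six2-Cre kidneys. Both falls passed the test, with log2 changes of -0.66 ± 0.09 (limma, adjusted p = 4.9e-04) and -0.64 ± 0.09 (adjusted p = 0.00664). The difference between them was -0.02 ± 0.13 (adjusted p = 0.952), with a 95% interval of -0.29 to 0.25.

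Lhx1 (ENSMUSG00000018698, chromosome 11, 84518284 to 84525535) encodes a LIM homeodomain factor needed for the renal vesicle to form a nephron. It was at 6.00, 5.35, 6.03, 5.59 and 6.599 FPKM in Foxd1-Cre kidneys, against a lowest of 9.40, a median of 13.8 and a highest of 17.7 FPKM in their wild types. The groups did not overlap, and the mean was 43.4% of that of the wild types, with a log2 change of -1.05 ± 0.14 (limma, adjusted p = 3.1e-04). In Six2-Cre kidneys Lhx1 was at 11.3, 12.3 and 10 FPKM, against 19.4, 12.54 and 12.9 FPKM, and all 3 mutant libraries again lay below the wild types. That change of -0.37 ± 0.17 did not pass (adjusted p = 0.214, 95% interval -0.78 to 0.05), with wild type 7 well above the other 2, and was -0.18 without it (adjusted p = 0.323). The difference between the effects, -0.69 ± 0.22, did not pass (adjusted p = 0.0632), but passed without wild type 2 (-0.78, adjusted p = 0.0318) or wild type 7 (-0.88, adjusted p = 0.00334). Lhx1os, a non-coding RNA gene that starts beside Lhx1 on the other strand, was named after its values were seen. Its mean in Foxd1-Cre kidneys was 3.87 FPKM (SD 0.758, 5 libraries), against 8.58 FPKM (SD 2.71, 6 libraries) in wild types 1 to 6, a log2 change of -0.94 ± 0.18 (adjusted p = 0.00434). In Six2-Cre kidneys the mean was 4.32 FPKM (SD 1.29, 3 libraries), against 8.43 FPKM (SD 2.31, 3 libraries) in wild types 7 to 9, and the change missed the threshold (-0.83 ± 0.25, adjusted p = 0.0804).

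Osr2 (ENSMUSG00000022330, chromosome 15, 35296098 to 35303305) encodes an odd-skipped zinc finger protein that palate growth requires in the mouse. It showed the largest change of the 9 genes. In Six2-Cre kidneys its level was 0.137, 0.885 and 0.599 FPKM, against 6.77, 4.36 and 5.18 FPKM in wild types 7 to 9. The mean was 9.94% of that of the wild types, and the log2 change was -2.08 ± 0.23 (limma, adjusted p = 0.00369). From the size of 1 read and the longest coding transcript, the Six2-Cre values rest on about 1.26, 8.89 and 6.08 reads and the wild-type values on about 42.4 to 67.7. With a pseudocount of 0.1 the log2 change was -3.32. In Foxd1-Cre kidneys Osr2 went the other way, at 12.3, 6.06, 9.86, 11.7 and 12.0 FPKM, against a lowest of 3.59, a median of 5.51 and a highest of 8.10 FPKM. Foxd1-Cre replicate 2 lay within the wild-type range and the other 4 above it. The rise of 0.76 ± 0.22 passed (adjusted p = 0.0448), but not without any 1 of Foxd1-Cre replicates 1, 3, 4 and 5 or wild types 2, 3, 4 and 6 (adjusted p from 0.0574 to 0.109), nor with low genes kept (0.0641). Foxd1-Cre and Six2-Cre effects differed by 2.83 ± 0.32 (adjusted p = 2.0e-05), the widest gap among the 9 genes.

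Osr1, the related factor made in early nephron progenitors, averaged 11.1 FPKM in Six2-Cre kidneys and 20.9 FPKM in wild types 7 to 9 and fell (-0.87 ± 0.12; limma, adjusted p = 0.00796). In Foxd1-Cre kidneys it averaged 21.7 FPKM, against 24.8 FPKM in wild types 1 to 6, and did not pass (-0.19 ± 0.06, adjusted p = 0.0517). Osr1 and Osr2 were thus both called lower in Six2-Cre kidneys.

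Pou3f3 (ENSMUSG00000045515, chromosome 1, 42695768 to 42703176), also called Brn1, encodes a POU domain factor that development of the loop of Henle and distal nephron requires in the mouse. In Six2-Cre kidneys it was at 21.4, 25.3 and 22.4 FPKM, against 17.1, 14.7 and 15.5 FPKM in their wild types. All 3 mutant libraries lay above the wild types, with a log2 change of 0.52 ± 0.08 (limma, adjusted p = 0.0126). In Foxd1-Cre kidneys it was at 10.3, 8.26, 9.58, 9.33 and 10.1 FPKM, against a lowest of 9.79, a median of 11.9 and a highest of 13.8 FPKM. The 3 lowest Foxd1-Cre values lay below the whole wild-type range and the rest at its lower end. The change of -0.28 ± 0.08 passed narrowly (adjusted p = 0.0486), held under 7 of 20 alternatives, and of the 11 fits without 1 library it held only in that without wild type 2. Between the mutants the effects differed by -0.80 ± 0.12 (adjusted p = 2.8e-04). Of its relatives, Pou3f1 averaged 1.37 FPKM in Six2-Cre kidneys and 2.46 FPKM in their wild types (-0.54 ± 0.14, adjusted p = 0.0485), and Pou3f2 and Pou3f4 stayed at or under 0.389 and 0.546 FPKM in every library. Pax5 and Lhx5, relatives of Pax2 and Lhx1, stayed at or under 0.0583 and 0.163 FPKM.

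**Figure D2:**
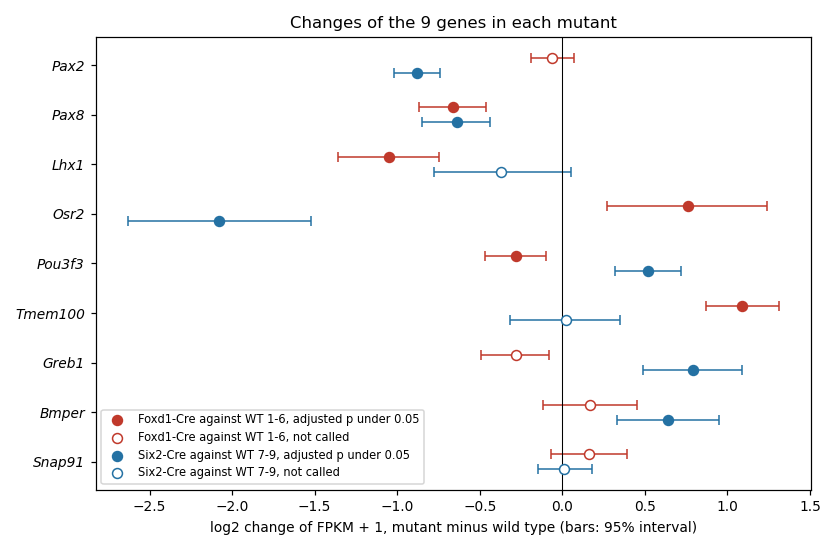
Log2 change of FPKM + 1 (horizontal axis, mutant minus wild type) of each of the 9 genes in Foxd1-Cre kidneys (red) and Six2-Cre kidneys (blue), with 95% intervals from limma, filled where the adjusted p was under 0.05. Pax8 lay at -0.66 in Foxd1-Cre and -0.64 in Six2-Cre kidneys, while Osr2 lay at 0.76 in Foxd1-Cre and -2.08 in Six2-Cre kidneys.

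Tmem100 (ENSMUSG00000069763, chromosome 11, 90030348 to 90036508) encodes a small membrane protein known as a target of BMP9 and ALK1 signalling in endothelium. It was at 10.2, 10.9, 10.54, 13.6 and 10.8 FPKM in Foxd1-Cre kidneys, against a lowest of 3.74, a median of 4.73 and a highest of 5.71 FPKM. Every Foxd1-Cre library was above every wild type, the ratio of the means was 2.35, and the log2 change of 1.09 ± 0.10 passed (limma, adjusted p = 1.5e-05). In Six2-Cre kidneys it was at 5.12, 6.06 and 6.76 FPKM, against 6.89, 5.85 and 4.99 FPKM, with a change of 0.02 ± 0.14 (adjusted p = 0.949, 95% interval -0.32 to 0.35). The Foxd1-Cre and Six2-Cre effects differed by 1.07 ± 0.17 (adjusted p = 0.00122). Since Tmem100 is also an endothelial gene, the 12 endothelial markers are given beside it: 3 of 12 rose in Foxd1-Cre kidneys, with a summed level of 209 to 268 FPKM against 198 to 239 FPKM in wild types 1 to 6. In Six2-Cre kidneys 12 of 12 rose, with a summed level of 259.9 to 270.5 FPKM against 130.2 to 154.2 FPKM in wild types 7 to 9, while Tmem100 did not pass there. Their part in the level of Tmem100 was not tested.

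Greb1 (ENSMUSG00000036523, chromosome 12, 16670615 to 16800886) is best known as an oestrogen-induced gene of human breast cancer cells. In Six2-Cre kidneys it was at 11.04, 12.6 and 9.52 FPKM, against 5.99, 5.24 and 6.68 FPKM in wild types 7 to 9. All 3 mutant libraries lay above the wild types, at a ratio of means of 1.85, and the log2 change of 0.79 ± 0.12 passed (limma, adjusted p = 0.0115). In Foxd1-Cre kidneys Greb1 was at 3.98, 3.57, 3.66, 3.49 and 3.35 FPKM, against a lowest of 3.33, a median of 4.62 and a highest of 5.64 FPKM. Wild type 2 lay just below the lowest Foxd1-Cre value, and all other wild types of the set lay above the highest. The change of -0.28 ± 0.09 did not pass (adjusted p = 0.0688), and without wild type 2 it did (-0.36, adjusted p = 0.00280). The gap between the effects was -1.07 ± 0.16 (adjusted p = 5.4e-04).

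Greb1l, the close relative of Greb1 whose loss impairs kidney formation in the mouse, averaged 1.27 FPKM in Foxd1-Cre kidneys and 1.71 FPKM in their wild types and fell (-0.26 ± 0.07; limma, adjusted p = 0.0227). In Six2-Cre kidneys it averaged 2.98 FPKM, against 2.42 FPKM, and did not pass (0.22 ± 0.12, adjusted p = 0.268), and the effects differed by -0.48 ± 0.13 (adjusted p = 0.0471). Of 4 steroid receptor genes Esr1 and Esr2 passed the filter, each through 1 mutant group alone, so their values are given without a test. Esr1 averaged 1.22 FPKM in Foxd1-Cre kidneys and 0.141 FPKM in their wild types, and 0.656 FPKM in Six2-Cre kidneys, where Greb1 rose, and 0.306 FPKM in wild types 7 to 9. Esr2 averaged 0.204 FPKM in Foxd1-Cre kidneys and 0.346 FPKM in their wild types, and 1.64 FPKM in Six2-Cre kidneys and 0.705 FPKM in wild types 7 to 9.

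Bmper (ENSMUSG00000031963, chromosome 9, 23223076 to 23485200) encodes a secreted protein that binds bone morphogenetic proteins and tunes their signal. It was at 38.9, 36.0 and 41.7 FPKM in Six2-Cre kidneys, where its mean was the highest of the 9 though its range met that of Pax2, against 20.2, 26.1 and 28.2 FPKM in wild types 7 to 9. The groups did not overlap, and the log2 change of 0.64 ± 0.13 passed (limma, adjusted p = 0.0245). The call ended without any 1 of the 3 Six2-Cre libraries or without wild type 8 (adjusted p from 0.0562 to 0.0856). In Foxd1-Cre kidneys Bmper was at 27.7, 32.7, 32.5, 23.7 and 27.8 FPKM, against a lowest of 20.0, a median of 24.3 and a highest of 34.3 FPKM, a change of 0.17 ± 0.13 that did not pass (adjusted p = 0.477, 95% interval -0.12 to 0.45). The gap between the effects, -0.47 ± 0.18, did not pass (adjusted p = 0.112).

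Other BMP pathway genes moved in both mutants. In Foxd1-Cre kidneys 7 of 15 rose and 8 did not pass, led by the BMP antagonist Grem1 (1.61 ± 0.12; limma, adjusted p = 3.5e-06), which reached 1 FPKM in mutant libraries only, and the ligand Bmp4 (0.85 ± 0.10, adjusted p = 9.7e-05). In Six2-Cre kidneys 8 of 15 rose, among them Bmp4 (1.74 ± 0.11, adjusted p = 8.0e-04), 1 fell, the ligand Bmp7 (-0.84 ± 0.11, adjusted p = 0.00646), and 6 did not pass. Eng and Acvrl1, 2 of the 8 that rose, are also among the 12 endothelial markers, all of which rose there, and the part of endothelial RNA in the count was not tested. The medians of the list were 0.23 and 0.41, beside medians over all genes of -0.008 in Foxd1-Cre and -0.009 in Six2-Cre kidneys. Kcp, a relative of Bmper that also binds BMPs, rose in Six2-Cre kidneys (mean 7.53 FPKM, against 4.06 FPKM in wild types 7 to 9, 0.75 ± 0.08, adjusted p = 0.00312) and did not pass in Foxd1-Cre kidneys (0.20 ± 0.14, adjusted p = 0.416).

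Snap91 (ENSMUSG00000033419, chromosome 9, 86765923 to 86880654) encodes AP180, a clathrin assembly protein of nerve terminals. It was at 14.3, 13.0, 9.47, 11.1 and 13.2 FPKM in Foxd1-Cre kidneys, against a lowest of 9.27, a median of 10.6 and a highest of 12.8 FPKM. In Six2-Cre kidneys it was at 9.93, 10.2 and 9.14 FPKM, against 9.22, 9.76 and 9.98 FPKM. Both pairs of groups overlapped, and the changes of 0.16 ± 0.10 (limma, adjusted p = 0.402, 95% interval -0.07 to 0.39) and 0.01 ± 0.07 (adjusted p = 0.915, 95% interval -0.15 to 0.18) did not pass. The neural markers beside it moved in both mutants. In Foxd1-Cre kidneys 5 of 13 tested rose and 1 fell, at a summed level over 15 genes of 90.8 to 119 FPKM against 38.4 to 48.3 FPKM in wild types 1 to 6. Gap43 (mean 54.5 FPKM against 11.4 FPKM) and Tubb3 (22.4 FPKM against 1.93 FPKM), a growth cone protein and a neuronal tubulin, carried that rise, and the other 13 genes summed to 23.8 to 38.0 FPKM against 26.2 to 31.4 FPKM, with Stmn2 called lower. In Six2-Cre kidneys 9 of 13 rose and 0 fell, at 69.5 to 103 FPKM against 31.7 to 42.5 FPKM in wild types 7 to 9, and without Gap43 and Tubb3 at 45.7 to 71.7 FPKM against 22.2 to 32.6 FPKM. Hand2, Th and Prph, among these neural genes, reached 1 FPKM in mutant libraries only, so the filter kept them for their high values. Of 10 synaptic vesicle genes, which work with AP180 at nerve terminals, 1 rose in Foxd1-Cre kidneys (Syt1, 0.40 ± 0.08, adjusted p = 0.00611), and in Six2-Cre kidneys Snap25 and Syt1 rose and Amph, another endocytic adaptor, fell (-1.73 ± 0.12, adjusted p = 9.0e-04). Snap25 and Syt1 too reached 1 FPKM in mutant libraries only.

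The order of the levels per transcript length differed between genotypes, and also between the sets of wild types. In wild types 1 to 6 it ran Pax2, Bmper, Pax8, Lhx1, Pou3f3, Snap91, Osr2, Tmem100 and Greb1, where the ranges of Bmper and Pax8, of Lhx1, Pou3f3 and Snap91 in turn, and of Osr2, Tmem100 and Greb1 in turn overlapped. In Foxd1-Cre kidneys Lhx1 came eighth, its range below those of Tmem100 and Pou3f3 but reaching the lowest Osr2 value. In Six2-Cre kidneys Bmper and Pax2 led with overlapping ranges, Pou3f3 came next, clear of Pax8, and Osr2 came last, clear of Tmem100.

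**Figure D3:**
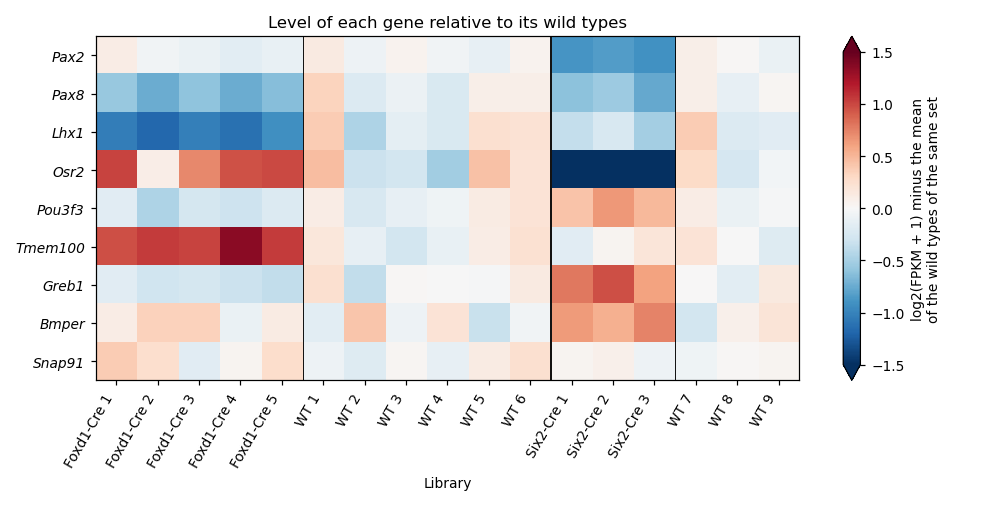
Each cell is log2(FPKM + 1) of 1 gene (rows) in 1 library (columns) minus the mean of the wild types of the same library set, on a scale cut at -1.5 and 1.5. Lhx1 and Pax8 are low in every Foxd1-Cre library, Osr2 is beyond the scale in all 3 Six2-Cre libraries, and wild types 1, 5 and 6 stand above wild types 2, 3 and 4 for Pax8, Lhx1, Osr2, Pou3f3 and Tmem100.

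Some of the genes also moved together among wild types 1 to 6 and around the group means of set 1. For 5 of the 9, namely Pax8, Lhx1, Osr2, Pou3f3 and Tmem100, wild types 1, 5 and 6 were the 3 highest of the 6 wild types of set 1. The share of all genes with that order was not counted. After each library's deviation from its group mean was taken, Pax8 and Lhx1 had a Pearson r of 0.91 over the 11 libraries of set 1, Lhx1 and Pou3f3 of 0.87, and Osr2 and Pou3f3 of 0.83. Bmper ran against them, with r of -0.72 against Lhx1 and -0.75 against Osr2, and Snap91 was only loosely related to any (highest r 0.49, with Pou3f3). Pax2 was related unevenly to the others, with r from -0.14 with Tmem100 to 0.65 with Greb1. The points share library, depth and dissection, so these values are a description. They pool Foxd1-Cre and wild-type libraries, and r within 1 genotype was not computed. Lhx1 had a coefficient of variation of 23.7% and Osr2 of 33.9% in wild types 1 to 6, against 6.83% for Pax2.

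Genes with the most similar pattern were sought among the 10102 genes that averaged 5 FPKM or more, by Pearson r over the 17 libraries after centring on the wild types of the same set. Cldn4 (r 0.982), Amph (0.981) and Spock2 (0.979) were closest to Pax2, and Smoc2 (0.954) and St3gal6 (0.931) were close to Pax8. Lhx1 was followed by Gdnf (0.938), the ligand of the Ret receptor, and Klf4 (0.935). Osr2 was followed by Pkp4 (0.941), Myc (0.932) and Lrig3 (0.932), and Tmem100 by Tom1l1 (0.967), also on chromosome 11, Sdc2 (0.964) and Arl4a (0.961). Pou3f3 and Greb1 shared Sorbs2 (0.950 and 0.965) and Rai14 (0.929 and 0.961), and Greb1 itself came second for Pou3f3 (0.939). Cdh4, a cadherin of the committed nephron, was also close to Greb1 (0.951). Bmper was closest to Col9a1 (0.955), Plxna2 (0.930) and Col25a1 (0.925), and Snap91 to Cyb5r4 (0.832), Pclaf (0.796) and Gm28967 (0.791).

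Among 25 other genes of the committed nephron, 23 passed the filter. There were 4 that rose, 6 that fell and 13 that missed the threshold in Foxd1-Cre kidneys, beside 7, 5 and 11 in Six2-Cre kidneys, with median log2 changes of -0.21 and -0.07. Cdh6, a cadherin of nascent nephrons, averaged 13.7 FPKM in Foxd1-Cre kidneys and 5.74 FPKM in their wild types (1.13 ± 0.10; limma, adjusted p = 9.2e-06), and rose in Six2-Cre kidneys as well (0.56 ± 0.13, adjusted p = 0.0343). Wnt4 and Irx3 were also called higher in both mutants, and Papss2 was called lower in both. The transcription factor Mecom fell in Foxd1-Cre kidneys (-0.83 ± 0.07, adjusted p = 7.1e-06) and rose in Six2-Cre kidneys (0.23 ± 0.05, adjusted p = 0.0251). The Notch target Hes1 fell in Foxd1-Cre kidneys (-0.38 ± 0.03, adjusted p = 1.1e-05), and its change in Six2-Cre kidneys did not pass (-0.07 ± 0.05, adjusted p = 0.405). Dkk1, a secreted Wnt inhibitor, averaged 55.2 FPKM in Six2-Cre kidneys and 8.70 FPKM in wild types 7 to 9 (2.54 ± 0.07, adjusted p = 8.3e-05), and fell in Foxd1-Cre kidneys (-0.45 ± 0.10, adjusted p = 0.0133). In Six2-Cre kidneys the adhesion ligand Npnt (-1.0 ± 0.06, adjusted p = 5.6e-04), the transcription factor Wt1 (-0.90 ± 0.06, adjusted p = 8.9e-04) and the cyclin Ccnd1 (-0.69 ± 0.05, adjusted p = 0.00130) fell, as Pax2 did. The effects of the mutants differed for 12 of the 23, with 5 differences above 0 and 7 below.

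**Figure D4:**
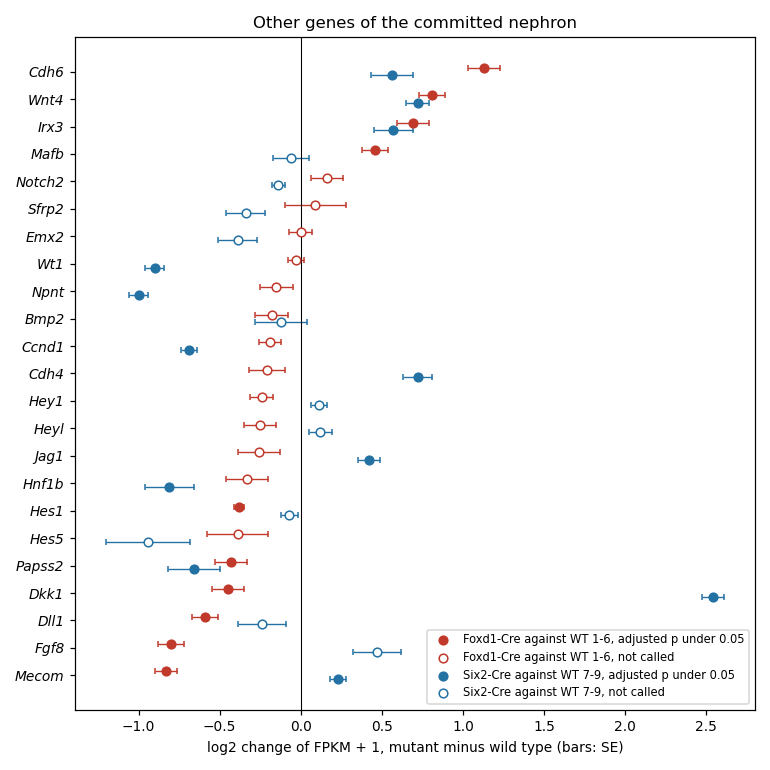
Log2 change of FPKM + 1 (horizontal axis, mutant minus wild type, bars SE) for the 23 other committed nephron genes tested, in Foxd1-Cre kidneys (red) and Six2-Cre kidneys (blue), filled where the adjusted p was under 0.05. Cdh6, Wnt4 and Irx3 lie to the right in both mutants, and Dkk1 and Mecom lie on opposite sides.

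Marker transcripts of the cell types in these kidneys moved as well. Of 18 nephron progenitor genes 8 fell and 1 rose in Foxd1-Cre kidneys, at a summed level of 587 to 662 FPKM against 731 to 871 FPKM in wild types 1 to 6. In Six2-Cre kidneys 11 of 18 fell and 1 rose, at 337 to 344 FPKM against 632 to 706 FPKM in wild types 7 to 9. Of 21 ureteric bud genes tested 3 rose and 4 fell in Foxd1-Cre kidneys (summed level of 24 genes, 406 to 505 FPKM against 429 to 490 FPKM). In Six2-Cre kidneys 0 rose and 11 fell, among them Krt8 (-0.71 ± 0.06; limma, adjusted p = 0.00166), at 342 to 360 FPKM against 438 to 472 FPKM. Of 9 adrenal and gonad genes 4 were tested, and Amhr2 rose in Foxd1-Cre kidneys. In Foxd1-Cre kidneys 4 of 16 cortical stroma genes rose and 7 fell (455 to 509 FPKM against 678 to 776 FPKM), and 5 rose and 1 fell in Six2-Cre kidneys (816 to 856 FPKM against 746 to 781 FPKM). Among 5 podocyte genes Foxd1-Cre kidneys had 3 that rose and 1 that fell, and 1 rose and 1 fell in Six2-Cre kidneys. The summed level of 9 podocyte genes was lower in Foxd1-Cre kidneys (420 to 489 FPKM against 540 to 645 FPKM). It was also lower in Six2-Cre kidneys (384 to 406 FPKM against 438 to 449 FPKM). Most of that sum was Cdkn1c, the gene that fell in both (mean 420 FPKM in Foxd1-Cre kidneys, against 576 FPKM). Of 3 early tubule genes 0 were called in Foxd1-Cre kidneys and 3 fell in Six2-Cre kidneys. Of these 3, Lrp2 passed the filter through wild types 7 to 9 alone, and Cdh16 is also among the 11 ureteric bud genes that fell. Of 7 erythroid genes 3 fell in Foxd1-Cre kidneys, and 1 rose and 6 fell in Six2-Cre kidneys. The part of these cell types in the levels of the 9 genes was not tested.

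Read against the background, 3 of the 9 genes (Pax8, Lhx1 and Tmem100) had Foxd1-Cre and wild-type libraries that did not overlap, against 10.7% of all genes tested; 1 was higher and 2 lower in the mutant, against 6.89% and 3.80%. In Six2-Cre kidneys 7 of the 9 did not overlap, all but Tmem100 and Snap91, against 35.7% of all genes, with 3 higher and 4 lower, against 18.0% and 17.7%. Pax8, Lhx1 and Tmem100 in Foxd1-Cre kidneys and Pax2, Pax8, Osr2, Pou3f3 and Greb1 in Six2-Cre kidneys kept their call under every alternative run.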

How the data were processed

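Bulk RNA-seq of 17 libraries was analysed, with groups taken from the sample titles. The authors deposited 1 table of FPKM values. The tools named are bcl2fastq 2.17.1.14 and Salmon, and the build is GRCm38, per the submitters' processing notes; the annotation release, the gene summary, the use of strand and any scaling are not given in the sources used here. Gene IDs were matched to GENCODE M21 symbols (24189 of 24432). Read counts were not used here; the read depth was estimated from the smallest step of FPKM times length in 1928 genes with 1 transcript of 1500 to 4000 bases.

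Each mutant was fitted with its own wild types as log2(FPKM + 1) in limma 3.58.1 (R 4.3.3, variance trend, Benjamini-Hochberg, two-sided). The difference of effects added squared errors, with Satterthwaite degrees of freedom. The fits were tested on simulated data. Errors are SE for log2 changes and SD for FPKM. The members, lists and tests were chosen with earlier results of these data known. Named genes were the members, their relatives, genes of each list with the smallest p and the 3 most similar genes per member (1 is not reported here); others are marked or belong to a list count. Nothing says replicates came from separate litters, so p-values measure the spread between these samples. Pax2, Pax8, Pou3f3, Greb1 and Snap91 overlap another annotated gene, so their values may share reads. Alternatives were pseudocounts of 0.1 and 0.5, other filters and scalings, all 9 wild types, a joint fit, a replicate block and leaving out each library.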

Additional observations from a re-analysis of the deposited data

Results flagged for a closer look

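The effects of the 2 mutants differed for 5 of the 9 genes by the test of the difference itself (Foxd1-Cre effect minus Six2-Cre effect, limma errors, Benjamini-Hochberg over 13810 genes). The differences on the log2 scale were 2.83 for Osr2, 1.07 for Tmem100, 0.82 for Pax2, -0.80 for Pou3f3 and -1.07 for Greb1. Each mutant was measured in its own library set, so the lineage of activation and the set cannot be told apart except through the wild types of each set.

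Foxd1-Cre replicate 4 stood apart for Tmem100, at 13.6 FPKM against 10.2 to 10.9 FPKM in the other 4 Foxd1-Cre libraries. It was the 1 library far from the rest among 18 groups of 5 or 6 values examined, where chance gives about 1 in 20. Without it the rise of Tmem100 kept its call.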

How the results depend on the processing

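Of 27 results (9 genes in 3 comparisons), 17 kept direction and call in every alternative run. Counts moved most with all 9 wild types in one fit, which sets each mutant partly against wild types of the other library set. It called 1234 genes in Foxd1-Cre kidneys and 6444 in Six2-Cre kidneys, against 1856 and 1905. In its difference the wild types cancel, so that contrast sets Foxd1-Cre directly against Six2-Cre libraries, across the library sets. It called 8505 genes and 8 of the 9, beside 1519 and 5 for the difference of effects, which is another measure. One joint fit with a shared spread called 3669 genes in Six2-Cre kidneys; the cause was not tested. With low genes kept, 3 of the 9 were called in Foxd1-Cre kidneys. Leaving out 1 library gave 3 to 5 of the 9 in Foxd1-Cre kidneys and 907 to 1467 genes in Six2-Cre kidneys, where 5 or 6 of the 9 were called. Signs turned only where the change was near 0. Snap91 in Six2-Cre kidneys was at -0.0016 with libraries rescaled by the median ratio, at -0.08 with all 9 wild types and from -0.02 to 0.06 without 1 library. Tmem100 in Six2-Cre kidneys ranged from -0.08 to 0.12 without 1 library, and the difference for Pax8 from -0.08 to 0.05. The direct contrast of the mutants in the fit with all 9 wild types gave 0.06 for Pax8. With replicate numbers 1 to 5 as a replicate block, 1426 genes and 5 of the 9 were called in Foxd1-Cre kidneys; same-numbered libraries correlated by 0.01 to 0.12, so the numbers do not pair them. No paired analysis was possible for Six2-Cre because its replicates share no numbers with wild types 7 to 9. Rescaling to the same sum moved the split in Foxd1-Cre kidneys to 1228 higher and 405 lower, against 1182 and 674. Depth limits Osr2 most, since its Six2-Cre values rest on few reads.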
